A study of Mus musculus with 2 samples.

Results

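Tumour necrosis factor (Tnf) and 8 genes that carry or restrain the NF-kB response downstream of it were followed across the immune cells of the glaucomatous mouse retina. The 9 genes, Tnf, Nfkbia, Tnfaip3, Nfkbiz, Nfkb1, Nfkb2, Relb, Cd83 and Icam1, were named as a list and all 9 were found by symbol in both count tables, among 17683 genes listed for either library and 15169 listed for both. They were read in cell classes set by marker transcripts, and the ligand was set against its inhibitors.

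The study used B6 mice in which microbeads had caused glaucoma, stained their retinal cells for CD45, a protein of all blood-derived immune cells and microglia, sorted the positive ones and read them by droplet single-cell RNA sequencing (10x 3' kit). In this model, beads block the outflow of fluid from the eye and raise its pressure. One group of glaucomatous mice had received PBS and the other Igfbpl1, a secreted relative of the binding proteins of insulin-like growth factors, and each group had 1 library pooled from 10 mice aged 8 to 10 months. Both groups carried the glaucoma, and no healthy retina was analysed here. With 1 library in each group nothing was tested: values compare 2 libraries, not 2 treatments, and each interval is an exact 95% interval that covers counting error only.

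TNF is released by activated microglia and macrophages and signals through its receptors to the IkB kinase complex, which marks the inhibitor IkBα (Nfkbia) for destruction and frees NF-kB dimers to enter the nucleus. NF-kB then switches on its own brakes, among them Nfkbia and the ubiquitin-editing enzyme A20 (Tnfaip3), so that ligand and inhibitors are products of the same response. In retinal glaucoma models TNF has been studied as a factor that microglia release and that harms ganglion cells.

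The stretch of DNA in front of the start site is shown for the ligand, for the inhibitor IkBα (Nfkbia) and for the adhesion molecule Icam1, since these are promoters on which NF-kB acts in textbook accounts. RefSeq promoter windows (build GRCm38.p6, the mm10 assembly) were found for 5 of the 9 genes, and the 250 bases before the start are printed 5′ to 3′ on the gene's own strand; none of the 3 printed windows overlaps an annotated exon. A Tnfaip3 window that overlaps no exon lies before an inner start of that gene and is not shown. Capitals mark a match to the kappa B consensus GGGRNNYYCC (R for A or G, Y for C or T, N for any base), searched on both strands. A second motif, the AP-1 motif TGANTCA, was searched in the same way and was not found in these 3 windows.
Tnf, minus strand, chr17:35202008-35202257: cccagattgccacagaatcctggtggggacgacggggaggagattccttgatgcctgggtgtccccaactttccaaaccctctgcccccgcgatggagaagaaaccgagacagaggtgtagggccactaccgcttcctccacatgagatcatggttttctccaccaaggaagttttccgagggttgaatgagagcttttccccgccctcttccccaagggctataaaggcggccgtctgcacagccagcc
Nfkbia, minus strand, chr12:55492648-55492897: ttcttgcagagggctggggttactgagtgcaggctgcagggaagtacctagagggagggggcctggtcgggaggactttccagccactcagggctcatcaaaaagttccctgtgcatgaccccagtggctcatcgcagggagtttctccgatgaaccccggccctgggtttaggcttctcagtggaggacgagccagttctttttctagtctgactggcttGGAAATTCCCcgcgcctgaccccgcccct
Icam1, plus strand, chr9:21015690-21015939: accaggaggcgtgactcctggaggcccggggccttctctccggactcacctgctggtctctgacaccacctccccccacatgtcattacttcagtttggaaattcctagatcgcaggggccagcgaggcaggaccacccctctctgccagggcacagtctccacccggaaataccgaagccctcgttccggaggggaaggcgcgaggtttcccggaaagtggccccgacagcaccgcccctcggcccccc
The Nfkbia window held 1 match to the consensus, on the strand opposite to the one printed, from 29 to 20 bases before the start. The Tnf and Icam1 windows held none. Windows that overlap an annotated exon were not printed. Of these, that of Tnfaip3 held 2 kappa B matches and 1 AP-1 match, and each of those of Nfkb2 held from 1 to 3 kappa B matches, with 1 AP-1 match in 1 window. Across all 32851 promoter windows of this length 7.25% held at least 1 kappa B match and 6.75% at least 1 AP-1 match. A match describes the letters only, and the absence of one says nothing about binding of NF-kB.

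The PBS library held 1055 cells with 3795008 UMIs (unique molecular identifiers, which count captured transcripts) and the Igfbpl1 library 3330 cells with 9463631 UMIs, at medians of 3433 and 2356 UMIs per cell, and the libraries shared 0 cell barcodes. A cell was placed in a class when it held at least 3 UMIs of at least 2 markers of that class and at least 2 times those of any other class. Microglia-like cells numbered 783 and 1607 in the PBS and Igfbpl1 libraries, with medians of 3525 and 2062 UMIs per cell. They held P2ry12 and Gpr34 UMIs in 95.3% and 93.6% of PBS cells and in 74.3% and 81.5% of Igfbpl1 cells, and medians of 44 and 18 microglial marker UMIs against 0 of monocyte and macrophage markers. Few cells lay near the limit, 4 and 31 with under 6 marker UMIs. Migratory dendritic-like cells were found in the Igfbpl1 library alone, 101 against 0 cells, and natural killer-like cells numbered 142 against 3. Cells that met no class numbered 54 and 513. Levels are given as CPM, UMIs per 1000000 UMIs of the summed class, for classes with at least 20 cells in a library.

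Tnf (chromosome 17, 35199381 to 35202007) was highest in microglia-like cells among the classes of both libraries. It stood at 225.5 CPM in PBS microglia-like cells (interval 208.5 to 243.6, from 651 UMIs) and at 195.1 CPM in Igfbpl1 cells (181.4 to 209.6, from 750 UMIs). The level in Igfbpl1 cells was thus 0.865 times that in PBS cells (0.778 to 0.962), an interval below 1, although the intervals of the 2 levels overlapped at their edges. Every other class was lower within its own library. The PBS cells that met no class held 209 CPM (153 to 278), an interval that overlapped that of PBS microglia-like cells. Monocyte/macrophage-like cells held 63.2 and 52.5 CPM in the PBS and Igfbpl1 libraries, and migratory dendritic-like cells 63.3 CPM. T-like cells held 28.5 and 37.2 CPM, B-like cells 32.4 and 8.43 CPM, from 6 and 1 UMIs. Below microglia-like cells, all neighbours in the order of levels had overlapping intervals in either library. Retinal neurons, which should lack Tnf, gave the level of free RNA. The 35 inner retinal neuron-like cells of the PBS library held 0 UMIs (interval up to 23.2 CPM). The 140 such cells of the Igfbpl1 library held 1 UMI, and 40 rod-like cells of the PBS library held 1 UMI.

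Tnf transcripts were carried by a minority of microglia-like cells. A Tnf UMI was found in 274 of 783 PBS cells (35.0%) and in 424 of 1607 Igfbpl1 cells (26.4%), but after every cell was thinned to 1000 UMIs the shares were 16.0% (13.5 to 18.7) and 14.9% (13.2 to 16.7), with overlapping intervals. The share in inner retinal neuron-like cells of the Igfbpl1 library, at a median depth of 1980 UMIs, was 0.714% before and after thinning. The 79 PBS cells with most Tnf held 58.5% of its UMIs and the 161 such Igfbpl1 cells 64.4%, with up to 13 and 11 UMIs in a cell. Such shares depend on how sparse a gene is. For Relb they were 57.6% and 64.9%, although its positive cells held 1.29 and 1.20 UMIs on average, against 2.38 and 1.77 for Tnf. Cells with 3 or more Tnf UMIs numbered 92 in the PBS and 75 in the Igfbpl1 library. Counting intervals treat each UMI as independent and so are narrower than the spread of transcripts that are held several to a cell.

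**Figure D1:**
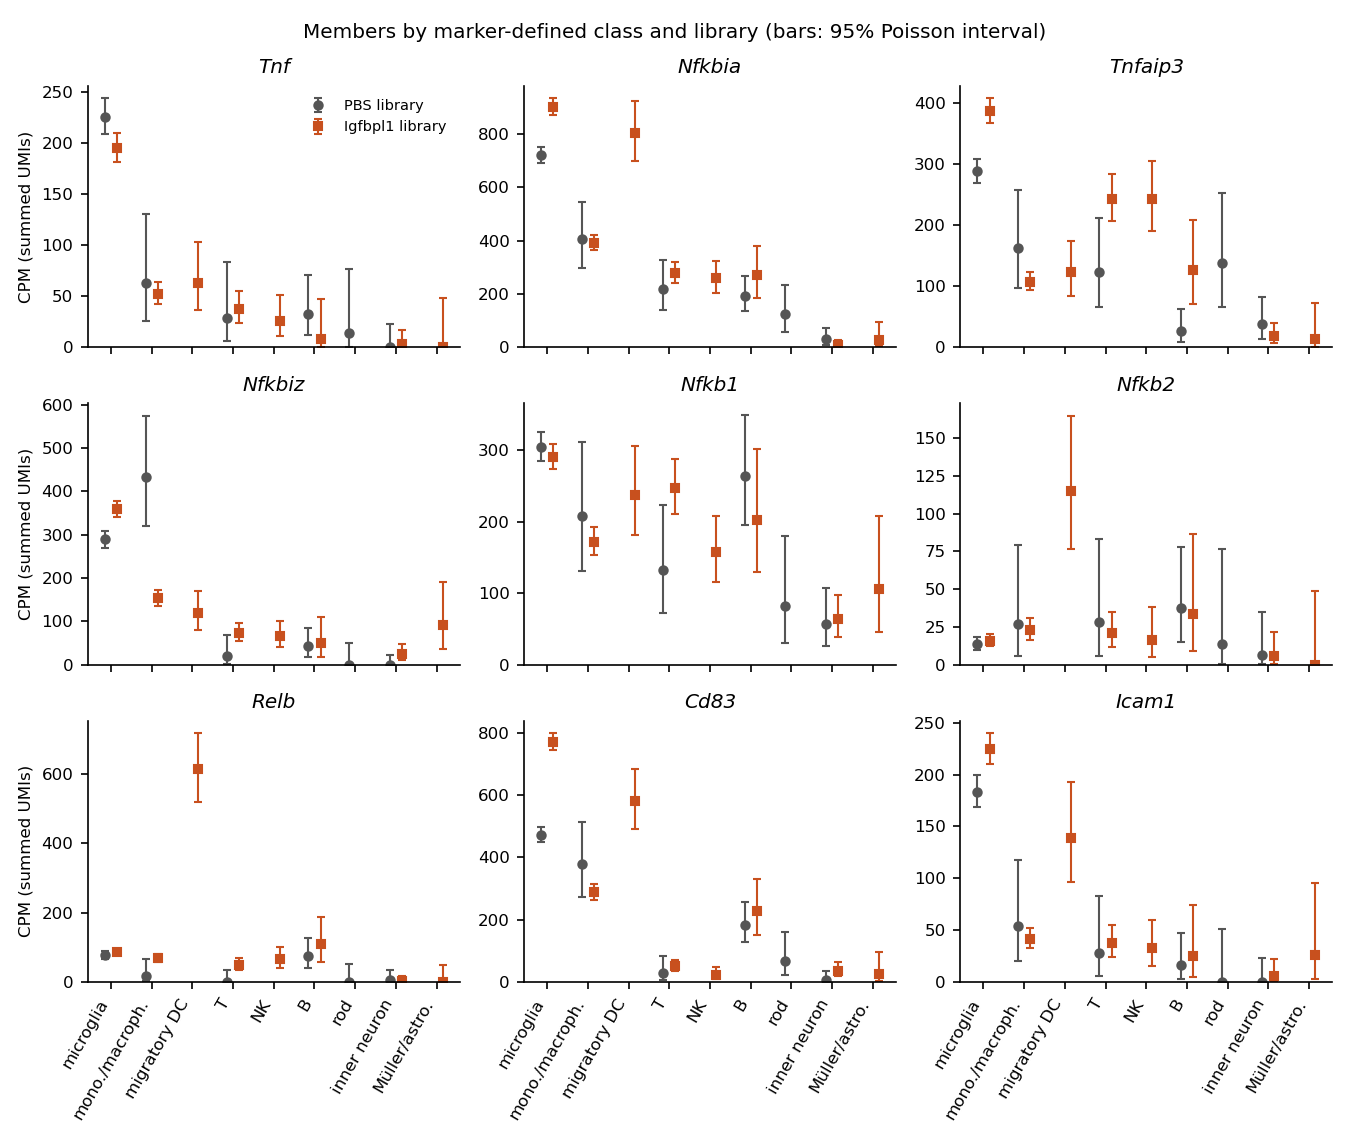
Level of each of the 9 genes (vertical axis, CPM of summed UMIs, each panel on its own scale) in each marker-defined class (horizontal axis), with circles for the PBS library, squares for the Igfbpl1 library and bars for the 95% Poisson interval. Tnf peaked in microglia-like cells at 225.5 and 195.1 CPM, whereas Relb and Nfkb2 peaked in the migratory dendritic-like cells of the Igfbpl1 library at 613 and 115 CPM.

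Nfkbia and Tnfaip3, the inhibitors set against the ligand, were higher in microglia-like cells of the Igfbpl1 library, where the ligand was lower. Nfkbia (chromosome 12, 55489410 to 55492647) encodes IkBα, which holds NF-kB dimers in the cytoplasm, and stood at 721 CPM (690 to 752) in PBS and 902 CPM (872 to 933) in Igfbpl1 cells. Its level was 1.252 times higher (1.19 to 1.32). Tnfaip3 (chromosome 10, 19000910 to 19015657) encodes A20, which removes the ubiquitin chains that carry the TNF receptor signal, and stood at 288 CPM (269 to 309) and 387 CPM (367 to 407). Its level was 1.34 times higher (1.23 to 1.46). Summed, the pair stood at 1009 and 1289 CPM, 1.28 times higher (1.22 to 1.34).

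Nfkbia was also abundant outside microglia. Migratory dendritic-like cells held 803 CPM (696 to 922), a level whose interval overlapped that of microglia-like cells in the same library, and monocyte/macrophage-like cells held 406 CPM in the PBS and 391 CPM in the Igfbpl1 library. T-like cells held 218 and 278 CPM, B-like cells 194 and 270 CPM and natural killer-like cells of the Igfbpl1 library 259 CPM. Inner retinal neuron-like cells were lowest with 31.5 and 9.09 CPM, from 5 and 3 UMIs. Thus Nfkbia ran down from microglia-like cells through monocyte/macrophage-like cells to lymphocytes, and no ratio between libraries outside the microglia-like class had an interval clear of 1.

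Tnfaip3 was placed differently among lymphocytes. Among Igfbpl1 cells, the T-like and natural killer-like classes held 243 CPM (207 to 283) and 242 CPM (190 to 304), next after microglia-like cells and above the 108 CPM (93.2 to 124) of monocyte/macrophage-like cells. The T-like cells of the PBS library held 123 CPM from 13 UMIs, and the ratio was 1.97 (1.12 to 3.77). The B-like cells held 27.0 and 126 CPM from 5 and 15 UMIs, a ratio of 4.69 (1.62 to 16.5). Large ratios were common in these classes, counted on CPM with 10 added over genes with a mean of at least 50 CPM and at least 20 UMIs. Of 2726 such genes in T-like cells 26.0% were at least 1.5-fold higher in the Igfbpl1 library, and of 2250 in B-like cells 14.2%. Rod-like cells of the PBS library held 10 UMIs (138 CPM, 66.0 to 253) in 6 cells, with up to 5 in a cell. That interval overlapped the one of the PBS T-like cells. Inner retinal neuron-like cells of that library held 37.75 CPM (13.85 to 82.2), from 6 UMIs. The part of free RNA in these PBS values was not tested. All PBS T-like cells lay in 1 Leiden cluster (11), which held 174 of the 247 T-like cells of the Igfbpl1 library, and 64 others lay in a cluster (19) with no PBS cell.

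Nfkbiz (chromosome 16, 55811375 to 55838899) encodes IkBζ, a nuclear IkB protein that is induced by NF-kB and helps to switch on a second set of targets. It stood at 289 CPM (270.0 to 310) in PBS and 359 CPM (340 to 378) in Igfbpl1 microglia-like cells, 1.24 times higher (1.14 to 1.35). In monocyte/macrophage-like cells the order was the opposite, with 433 CPM (320 to 574) in the PBS and 154 CPM (136 to 173) in the Igfbpl1 library, a ratio of 0.355 (0.260 to 0.492). These PBS cells numbered 22, of which 11 lay in Leiden cluster 1 and 11 in cluster 7. The 454 Igfbpl1 cells lay mainly in cluster 7 (211 cells) and in cluster 15 (203 cells), in which no PBS monocyte/macrophage-like cell was found. Class II antigen presentation genes were among the leading genes of each of these clusters, and Pf4 and Mrc1 among those of cluster 1 alone. The class was thus made of different mixes of clusters in the 2 libraries, and the part of this in the Nfkbiz value was not tested. Of 2939 genes measured by the same limits in this class, 42.5% were at least 1.5-fold lower in the Igfbpl1 library. T-like cells held 2 and 49 Nfkbiz UMIs, 19.0 and 72.9 CPM, a ratio of 3.84 (1.01 to 32.6).

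Nfkb1, Relb and Nfkb2, the dimer subunits of the list, had ratios between the libraries in microglia-like cells whose intervals included 1. That of Rel, a subunit outside the list, was 1.29 (1.19 to 1.40). Nfkb1 (chromosome 3, 135584655 to 135691547) encodes p105 and its product p50, the partner of RelA in the canonical dimer, and stood at 304 CPM (284 to 325) and 291 CPM (274 to 308). The ratio of 0.955 (0.874 to 1.04) included 1. Nfkb1 was found in all immune classes, highest in microglia-like cells and from 133 to 264 CPM in the other classes of the PBS library that are immune cells and from 157 to 247 CPM in those of the Igfbpl1 library, and from each class to the next in order the intervals overlapped, although the level in Igfbpl1 microglia-like cells lay apart from the 172 CPM (154 to 192) of monocyte/macrophage-like cells. The gene overlaps the predicted gene Gm43430 on the same strand, so some of its UMIs cannot be assigned with certainty.

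Relb (chromosome 7, 19606217 to 19629438) and Nfkb2 (chromosome 19, 46304320 to 46312385) encode RelB and p100, whose product p52 pairs with RelB in the slower, non-canonical arm of the pathway. Relb stood at 77.6 CPM (67.8 to 88.5) and 86.6 CPM (77.6 to 96.4) in microglia-like cells, a ratio of 1.12 (0.940 to 1.33) that included 1. Nfkb2 stood at 13.5 and 15.9 CPM there, from 39 and 61 UMIs, a ratio of 1.17 (0.773 to 1.80). Both genes were set apart by migratory dendritic-like cells, the dendritic cells that carry antigen to lymph nodes and express Ccr7, which were present in the Igfbpl1 library alone. There Relb reached 613 CPM (520 to 718) with a UMI in 74 of 101 cells (73.3%), and after thinning in 44.6%. The next level, in B-like cells, was 110 CPM (58.4 to 187), and the intervals were apart. Nfkb2 reached 115 CPM (76.8 to 165) in migratory dendritic-like cells against 33.7 CPM (9.19 to 86.4) in B-like cells, whose intervals overlapped, and 22.7 CPM (16.4 to 30.7) in monocyte/macrophage-like cells, whose intervals did not. Nfkb2 overlaps the gene Psd on the other strand, and no source used here states how strand was counted.

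Relb differed between the libraries where the PBS counts were few. Monocyte/macrophage-like cells held 2 and 126 UMIs (18.0 and 68.1 CPM), a ratio of 3.78 (1.02 to 31.5). As given above, this class was made of different mixes of clusters in the 2 libraries, and the part of this in the Relb value was not tested. T-like cells held 0 and 33 UMIs, the latter 49.1 CPM (33.8 to 69.0), while the PBS count of 0 allows up to 35.0 CPM. The interval of the ratio began at 1.33.

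The NF-kB targets were both higher in microglia-like cells of the Igfbpl1 library. Cd83 (chromosome 13, 43784775 to 43803132), a surface protein of activated antigen-presenting cells, stood at 472 CPM (448 to 498) in PBS and 770.0 CPM (742 to 798) in Igfbpl1 cells, 1.63 times higher (1.53 to 1.74). The share of cells with a Cd83 UMI after thinning was 29.5% and 44.6%. Icam1 (chromosome 9, 21015985 to 21028817), the ligand by which leukocytes adhere through their integrins, stood at 184 CPM (168 to 200) and 224 CPM (210 to 240.0), 1.22 times higher (1.10 to 1.36). Cd83 was also high in migratory dendritic-like cells at 582 CPM (491 to 684) and in monocyte/macrophage-like cells at 379 and 288 CPM, and B-like cells held 183 and 228 CPM. T-like and natural killer-like cells held 50.6 and 22.9 CPM in the Igfbpl1 library. Inner retinal neuron-like cells of that library, which should lack Cd83, held 36.4 CPM (18.8 to 63.5). The T-like and natural killer-like values were thus not clear of the level of free RNA. Icam1 in contrast fell off steeply outside microglia-like cells, to 138 CPM (96.4 to 193) in migratory dendritic-like cells and 54.2 and 41.6 CPM in monocyte/macrophage-like cells.

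**Figure D2:**
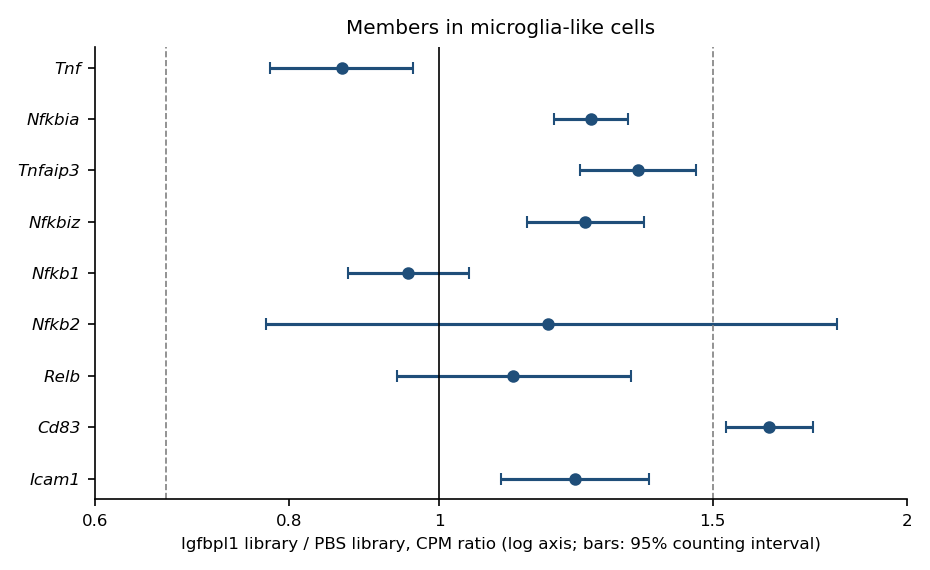
Ratio of the CPM in the Igfbpl1 library to that in the PBS library (horizontal log axis, no unit) for each of the 9 genes in microglia-like cells, with bars for the 95% counting interval, a solid line at 1 and broken lines at 1.5-fold in either direction. Tnf lay below 1 at 0.865, Nfkbia, Tnfaip3, Nfkbiz, Cd83 and Icam1 lay above 1 with intervals clear of it, and Cd83 lay farthest from 1 at 1.63.

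The differences were set against those of all measured genes of microglia-like cells. Of 3343 genes measured there (a mean of at least 50 CPM and at least 20 UMIs), 124 were at least 1.5-fold higher in the Igfbpl1 library (3.71%) and 168 at least 1.5-fold lower (5.03%), on CPM with 10 added. Of the 9 genes of the list, 8 were measured, Nfkb2 being too low, and 1 was higher by that size (Cd83) and 0 were lower. The median log2 ratio was 0.29 over the 8 genes and -0.11 over all measured genes. Relative to that median gene, the ratio of Tnf was 0.935 (0.841 to 1.04), which included 1, that of Relb 1.21 (1.02 to 1.44), and those of Nfkbia and Tnfaip3 1.35 (1.28 to 1.43) and 1.45 (1.33 to 1.58).

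Other genes of the pathway were taken from a list of ligands, receptors, kinases, inhibitors and targets. This list, like that of the 9 genes, was chosen with earlier results of these data known. Its counts are a description and cannot be read as a test against the share of all genes. Of 59 other pathway genes 34 were measured, 9 were at least 1.5-fold higher in Igfbpl1 microglia-like cells and 0 lower, with a median log2 ratio of 0.24. Within the high tertile by early genes, defined further on, 35 were measured, 8 were past 1.5-fold and 3 of these were higher. The share of all genes past 1.5-fold was not counted in that tertile. Of 4 measured genes of other ligands and their release, 2 were past 1.5-fold: Il1b, the interleukin-1β precursor, stood at 107 and 595 CPM, a ratio of 5.54 (4.92 to 6.26), and Il1a at 325 and 501 CPM, a ratio of 1.54. The remaining pair had ratios below 1, Tnfsf13b, which encodes the B cell survival factor BAFF, at 0.665 (0.569 to 0.777) and Adam17, the protease that sheds TNF from the cell surface, at 0.866. Of the other inhibitors 2 of 7 measured were past 1.5-fold, Dusp1, a phosphatase of MAP kinases (588 and 1136 CPM, ratio 1.93), and Zfp36, which destabilises Tnf messenger RNA (658 and 1006 CPM, ratio 1.53). Of the other targets 4 of 12 were, the chemokines Ccl2 (424 and 1724 CPM, ratio 4.06), Cxcl2 (26.0 and 102 CPM), Ccl4 (4350 and 8578 CPM) and Ccl3 (2222 and 3472 CPM). Of 7 receptors and adaptors 1 was, the ubiquitin ligase Traf6 (40.5 and 72.6 CPM, ratio 1.79); Tlr2, a receptor for bacterial lipoproteins, had a ratio of 1.37 and Traf3 of 1.22. Of 4 kinases and subunits 0 were. Rel, the c-Rel subunit, stood at 338 and 437 CPM, a ratio of 1.29 (1.19 to 1.40). Tab2, an adaptor of the kinase TAK1, stood at 182 and 131 CPM, a ratio of 0.719 (0.635 to 0.815). The receptors of TNF itself, named here after their values were seen, stood at 58.9 and 49.95 CPM (Tnfrsf1a) and 69.0 and 58.5 CPM (Tnfrsf1b).

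Set against its inhibitors, the ligand was lower in the Igfbpl1 library. Per 100 UMIs of Nfkbia and Tnfaip3 together, microglia-like cells held 22.4 Tnf UMIs (20.5 to 24.4) in the PBS and 15.1 (14.0 to 16.4) in the Igfbpl1 library, a ratio of 0.677 (0.603 to 0.761) that does not depend on the library total. Capture can differ between genes, so this quantity was compared between libraries and classes only. In monocyte/macrophage-like cells it was 11.1 (4.29 to 24.3) and 10.5 (8.44 to 12.98). Other Igfbpl1 values were 7.14 in T-like, 6.84 in migratory dendritic-like and 5.23 in natural killer-like cells, with intervals below that of microglia-like cells. A difference between libraries in these classes could not be resolved at this depth, since the PBS values rested on 7 Tnf UMIs or fewer.

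**Figure D3:**
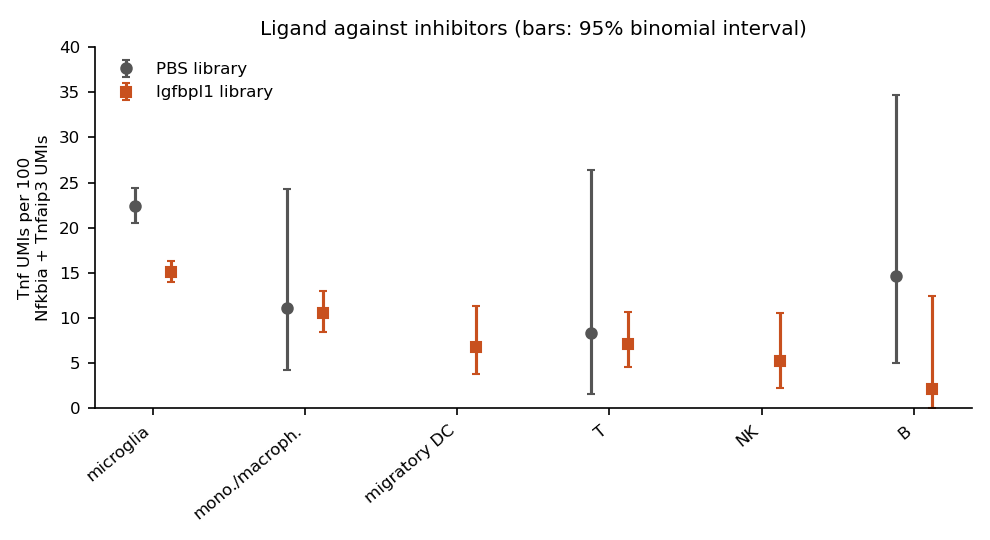
Tnf UMIs per 100 UMIs of Nfkbia plus Tnfaip3 (vertical axis) in 6 immune cell classes (horizontal axis), with circles for the PBS library, squares for the Igfbpl1 library and bars for the 95% binomial interval; migratory dendritic and natural killer classes have no PBS value. The intervals of the libraries are apart in microglia-like cells alone, at 22.4 and 15.1.

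Within single microglia-like cells ligand and inhibitor went together. In cells thinned to 1000 UMIs, Nfkbia was found in 49.6% (40.5 to 58.7) of the 125 PBS cells with a Tnf UMI and in 36.3% (32.6 to 40.1) of the 658 without. In the Igfbpl1 library the shares were 61.9% (55.4 to 68.1) of 239 cells and 45.5% (42.8 to 48.1) of 1368 cells. Nfkbiz, Nfkb1 and Icam1 were likewise found more often beside Tnf in both libraries, by 6.17 to 10.2 percentage points, although the intervals overlapped in all but Nfkbiz in the Igfbpl1 library. Tnfaip3 was found more often beside Tnf in the Igfbpl1 library, in 31.4% against 23.03%, but in nearly equal shares in the PBS library, 20.8% against 19.1%. Relb and Cd83 differed by at most 3.20 points in either library. The Nfkbia share in the Igfbpl1 library was 45.5% of cells with 0 Tnf UMIs, 59.1% (51.7 to 66.3) with 1 and 71.7% (57.7 to 83.2) with 2 or more, while in the PBS library it was 36.3%, 50% and 48.4%. The intervals of cells with 1 and with 2 or more Tnf UMIs overlapped in both libraries. Cells of 1 library are not replicates, and these shares describe the 2 libraries.

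**Figure D4:**
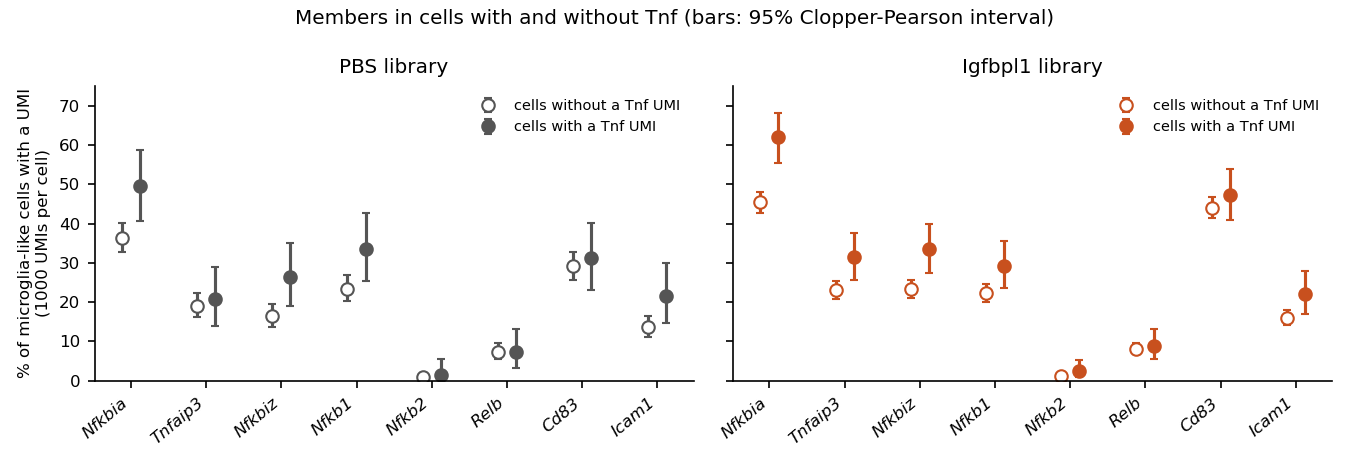
Share of microglia-like cells with a UMI of each gene (vertical axis, percent, every cell thinned to 1000 UMIs) among cells without (open circles) and with (filled circles) a Tnf UMI, in the PBS library on the left and the Igfbpl1 library on the right, with bars for the 95% Clopper-Pearson interval. Nfkbia shows the widest gap, from 36.3% to 49.6% and from 45.5% to 61.9%, and Relb and Cd83 show little.

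Immediate early transcripts, which cells make within minutes of a stimulus, and heat shock transcripts differed between the libraries in the same cells. The 8 early genes Fos, Fosb, Jun, Junb, Egr1, Ier2, Atf3 and Nr4a1 took a median of 8.64 per 1000 UMIs in PBS and 15.5 in Igfbpl1 microglia-like cells, and 10 heat shock genes 10.1 and 19.7. When all microglia-like cells were divided into equal tertiles by the early genes, 14.3% of PBS cells and 42.6% of Igfbpl1 cells fell in the high tertile, and the ratios changed with the tertile. Nfkbia rose across the tertiles from 424 to 831 and 1635 CPM in the PBS library and from 531 to 828 and 1151 CPM in the Igfbpl1 library. The Nfkbia ratio between libraries was therefore 1.254 (1.11 to 1.42), 0.996 (0.905 to 1.10) and 0.704 (0.645 to 0.768) from low to high. Nfkbia and Tnfaip3 together gave 1.19, 1.03 and 0.749. The higher summed inhibitor level of the Igfbpl1 library thus did not hold within the middle and high tertiles.

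The Tnf ratio fell across these tertiles as well. In the PBS library it stood at 183, 214 and 408 CPM from low to high, and in the Igfbpl1 library at 201, 172 and 213 CPM. The ratio was 1.10 (0.903 to 1.34) in the low, 0.802 (0.657 to 0.979) in the middle and 0.522 (0.434 to 0.629) in the high tertile, so that the lower Tnf of the Igfbpl1 library lay in the middle and high tertiles. Those high-tertile cells numbered 112 in the PBS and 685 in the Igfbpl1 library and had nearly equal medians of 22.9 and 23.2 early UMIs per 1000. Tnf per inhibitor UMI had ratios of 0.925, 0.780 and 0.697 from low to high. Cd83 alone of the 9 genes was higher in the Igfbpl1 library with an interval clear of 1 in every tertile, with ratios of 1.28 (1.13 to 1.45), 1.24 (1.11 to 1.39) and 1.62 (1.42 to 1.85). Tertiles by heat shock genes left the values nearer to those of all cells, with Tnf ratios from 0.821 to 0.9297, summed inhibitor ratios from 1.20 to 1.23 and Cd83 ratios from 1.43 to 1.60. The part of either response in the differences between libraries was not tested further.

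**Figure D5:**
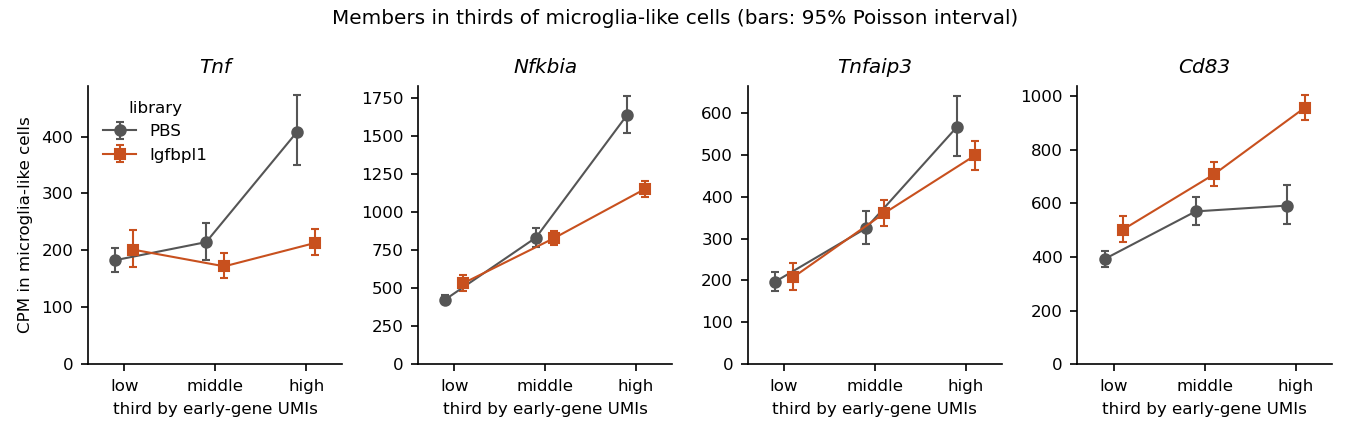
Level of Tnf, Nfkbia, Tnfaip3 and Cd83 (vertical axes, CPM) in microglia-like cells divided into 3 equal sets by their share of early-gene UMIs (horizontal axis), with circles for the PBS library, squares for the Igfbpl1 library and bars for the 95% Poisson interval. In the high set Tnf stands at 408 CPM in the PBS and 213 CPM in the Igfbpl1 library, while Cd83 is higher in the Igfbpl1 library in each set.

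Leiden clusters placed the libraries differently within the microglia-like class as well. Clusters 2 and 3 held 316 and 292 of the 783 PBS cells, and clusters 4, 3 and 0 held 584, 363 and 320 of the 1607 Igfbpl1 cells. In clusters 2, 3 and 4 the Tnf ratio was 0.921, 0.940 and 0.976 with intervals that included 1, and the summed inhibitors were higher in the Igfbpl1 library in each, by 1.52 (1.37 to 1.68), 1.17 (1.06 to 1.29) and 1.49 (1.30 to 1.73) times. In cluster 0, whose leading genes include Egr1, Ccl3 and Il1a, Tnf stood at 403 CPM in 41 PBS cells and 236 CPM in 320 Igfbpl1 cells, a ratio of 0.586 (0.447 to 0.777), and the summed inhibitors at 2299 and 1697 CPM, a ratio of 0.738 (0.662 to 0.825). Cluster 5, whose leading genes include the interferon-induced Cxcl10, Ifit2 and Ifit3, had a Tnf ratio of 0.529 (0.370 to 0.763) from 25 and 135 cells. Since the clusters were formed on expression that can include these genes, the values describe them only.

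The mix of cells by sex-linked transcripts also differed between the libraries. Cells with Xist and no UMI of 4 Y-linked genes numbered 193 of 783 PBS and 569 of 1607 Igfbpl1 microglia-like cells, and cells with Y-linked UMIs and no Xist 367 and 432. Tnf stood at 197 and 222 CPM in the Xist-only cells, a ratio of 1.13 (0.919 to 1.39), and at 251 and 169 CPM in the Y-only cells, a ratio of 0.673 (0.561 to 0.806). Nfkbia stood at 454 and 926 CPM in the Xist-only cells, 2.04 times higher (1.80 to 2.32), and at 848 and 924 CPM in the Y-only cells, 1.09 times higher (1.00 to 1.18). Icam1 showed a like split, with ratios of 2.25 (1.71 to 2.99) and 1.23 (1.05 to 1.44), and so did Nfkbiz with 1.78 (1.49 to 2.15) and 1.14 (0.995 to 1.30). Tnfaip3 did not, with 1.26 (1.06 to 1.49) and 1.41 (1.24 to 1.61). Cd83 was higher in both, by 2.08 and 1.45 times. Tnf per inhibitor UMI was lower in the Igfbpl1 library in both sets, at 0.650 and 0.573 times the PBS value. Whether these sets differ in their ratios was not tested, and the mice behind them cannot be counted.

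Among the cells that met no class, several of the genes were lower in the Igfbpl1 library. In these 54 PBS and 513 Igfbpl1 cells Tnf stood at 209 and 89.6 CPM, a ratio of 0.429 (0.309 to 0.608), Cd83 at 862 and 362 CPM, a ratio of 0.420 (0.357 to 0.496), and Nfkbiz at 503 and 181 CPM, a ratio of 0.360 (0.290 to 0.450). Nfkb1 had a ratio of 0.648 (0.494 to 0.864). The ratios of Nfkbia, 0.837 (0.686 to 1.03), Tnfaip3, 1.41 (0.962 to 2.13), and the 2 summed, 0.955 (0.801 to 1.15), included 1, as did those of the other members. The makeup of these cells differed in part: microglial markers led in 21 of 54 PBS and 115 of 513 Igfbpl1 cells, and T cell markers in 1 and 63. Monocyte/macrophage markers led in 23 and 220, which are similar shares, but the Leiden clusters of the cells that met no class differed. Cluster 1 held 25 of these PBS and 14 of these Igfbpl1 cells, cluster 7 held 12 and 125, and cluster 15 held 1 and 132. The part of this in the ratios was not tested.

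Across the 14 pairs of class and library with at least 20 cells, the genes whose levels were most like those of Tnf, among 7957 compared, were Apbb1ip, Abi3, Prex1, Rffl and Vps18, with Pearson r from 0.897 to 0.912 on log2 of CPM with 10 added. Those most like Nfkbia were Prex1, Rap1b, Mcl1, Zfand2a and Dock8 (0.907 to 0.932), and those most like Relb were Gbp5, Nfkbib, Cd274, Adap1 and Zfp524 (0.903 to 0.937). Nfkbib encodes IkBβ, another inhibitor of the family, and Cd274 the checkpoint ligand PD-L1. The pairs share 2 libraries and differ in depth, so these values are a description.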

How the data were processed

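The authors deposited raw counts, 1 table of UMIs for each of the 2 libraries with genes in rows and cells in columns. Per the submitters' processing notes they used Cell Ranger 3.1 and the mm10 build. How cells were filtered beforehand is not given in the sources, and every deposited cell was kept. The 9 genes, the marker sets and the 59 pathway genes were chosen with earlier results of these data known. Cells were classed by the UMIs of 13 marker sets, with Python 3.11.15, numpy 2.4.6, pandas 2.3.3 and scipy 1.17.1. Counts were summed by class and library and given as CPM. Exact intervals (Poisson on counts, Clopper-Pearson on shares, the conditional binomial on ratios) cover counting error only. Folds past 1.5 used CPM with 10 added. Thinning kept 1000 UMIs per cell (seed 2). Named were all 9 genes in each class, at most 2 measured genes of highest level and 2 of largest ratio from each of 5 pathway groups, and the 5 genes most like Tnf, Nfkbia and Relb. Clusters and doublets came from scanpy 1.11.5 (Leiden, Scrublet), and doublets, 6 and 62 cells, were kept. Splits by early genes, heat shock genes and clusters were described after the data were seen. Positions come from GENCODE M21 of mm10 and promoters from RefSeq. A marker gene and the alternative that leaves it out are not reported here. The scripts were tested on simulated data.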

Additional observations from a re-analysis of the deposited data

Results flagged for a closer look

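Nfkbiz was higher in the Igfbpl1 library in microglia-like cells (ratio 1.24) and in T-like cells (3.84, from 2 and 49 UMIs) and lower in monocyte/macrophage-like cells (0.355), each with an interval clear of 1. The difference between the classes was not tested. The monocyte/macrophage-like class was made of different mixes of clusters in the 2 libraries. Of 2939 genes measured there, 42.5% were at least 1.5-fold lower in the Igfbpl1 library and 16.2% higher. Of 2726 genes measured in T-like cells, 26.0% were at least 1.5-fold higher and 15.5% lower. Nfkbiz itself was below the limit of 50 CPM for measured genes in T-like cells.

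Nfkbia was higher in the Igfbpl1 library among microglia-like cells of the low tertile by early genes (ratio 1.254), level in the middle tertile (0.996) and lower in the high tertile (0.704). The sum of Nfkbia and Tnfaip3 followed the same order, at 1.19, 1.03 and 0.749. The difference between the tertiles was not tested.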

How the results depend on the processing

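Each group had 1 library, so no alternative leaves out a library. No paired analysis was possible because the result comes from no test. The cause of each change below was not tested.

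In all microglia-like cells the Tnf ratio was 0.865, that of the summed inhibitors 1.28 and that of Tnf per inhibitor UMI 0.677. Over other marker limits, Leiden clusters, deeper cells, doublets left out, other totals, the mean per cell and thinning, these kept their direction, with Tnf from 0.847 to 0.935. The summed inhibitors were further from 1 with scaling by the median gene (1.38) and with thinning (1.35).

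The choice of cells changed more. In Xist-only cells Tnf turned to 1.13 and the summed inhibitors were 1.74. In Y-only cells the values were 0.673 and 1.17, and Tnf per inhibitor UMI 0.573. Tertiles were chosen after seeing the data. From low to high by early genes, Tnf was 1.10, 0.802 and 0.522, the summed inhibitors 1.19, 1.03 and 0.749, and Tnf per inhibitor UMI 0.925, 0.780 and 0.697. Nfkbia turned to 0.996 and 0.704 and Icam1 to 0.914 and 0.861 in the middle and high tertiles, and Nfkbiz to 0.706 and Tnfaip3 to 0.881 in the high tertile. In the low heat shock tertile the summed inhibitors were 1.20 and Tnf per inhibitor UMI 0.774.

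Of the 9 genes, 1 was past 1.5-fold in all cells, 4 in Xist-only and 0 in Y-only cells, 0 at 2-fold, 0, 0 and 2 from low to high by early genes, and 0 in the middle heat shock tertile. The 2 were Tnf, lower, and Cd83, higher. In each of these sets 8 of the 9 genes were measured. Of the pathway genes 9 of 34 measured were past 1.5-fold in all cells, and 3 were past 2-fold. They were 20 of 32 in Xist-only cells (17 of them higher), 5 of 32 in Y-only cells (3 higher) and 5 of 32 in the low heat shock tertile. From low to high by early genes they were 6 of 29, 7 of 31 and 8 of 35, of which 5, 7 and 3 were higher. Most of the 8 in the high tertile were thus lower, against 9 higher and 0 lower in all cells. Of these microglia-like sets, only all cells together had the share of all measured genes past 1.5-fold counted (3.71% higher, 5.03% lower). The sets hold fewer cells, so their counts cannot be read against that share.

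Classes other than microglia-like cells held few PBS cells, and differences there were mostly not detectable at this depth.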
